A study of Mus musculus with 2 samples.

Results

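The PDGF and EGF family genes described here are 10 named genes, 6 ligands (Pdgfa, Pdgfb, Pdgfc, Pdgfd, Hbegf and Nrg1) and 4 receptors (Pdgfra, Pdgfrb, Egfr and Erbb2), out of 18193 genes named on the array. They were chosen by symbol alone: each of the 25 probe sets annotated to 1 of these genes was read, and the probe set that was brightest on average (mean log2 over both arrays) stood for the gene. Urogenital sinus mesenchyme (UGM) cells, the fetal stroma that surrounds the epithelium from which the prostate buds, had been taken from male C57BL/6 mice at day 16. The untreated group was cultured for 72 h in RPMI with the antibiotic Plasmocin and 5% serum that charcoal had cleared of steroids. The treated group received testosterone (12 nM) and estradiol-17β (120 pM) in the same medium, abbreviated T+E2. There was 1 array per group, so no difference below can be set against the spread between cultures and no p-value is given. The sample titles carry 24 h where every other label gives 72 h. The descriptions differ in the density of the cells before treatment (confluent for untreated, nearly confluent for T+E2), while the growth protocol gives a common one, 80% confluency. If the densities did differ, hormone and density cannot be told apart.

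Platelet-derived growth factors are secreted dimers that act on 2 receptor tyrosine kinases. PDGF-A and PDGF-C act mainly through PDGF receptor α, PDGF-D acts mainly through receptor β, and PDGF-B binds both. PDGF-C and PDGF-D are released in a latent form and have to be cut by proteases before they can bind. Members of the EGF family are mostly made as membrane precursors that are shed by ADAM proteases. HB-EGF (Hbegf) binds EGFR and ERBB4, neuregulin 1 (Nrg1) binds ERBB3 and ERBB4, and ERBB2 has no known soluble ligand and works as the partner of the other ERBB receptors. PDGF receptors are typical of mesenchyme, and both families are used for signalling between stroma and epithelium in many organs.

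Both arrays held 45101 probe sets, of which 42.9% (untreated) and 42.1% (T+E2) reached an intensity of 32 (log2 of 5). That value served as a floor: a gene was counted as measured when its probe set reached it on at least 1 array, which 10267 genes did. The 18 probe sets of the spiked-in hybridization controls differed by values that ran from -0.25 to 0.09 (log2). The labelled cell type was checked on 10 mesenchymal markers, of which 9 were measured and none was 2-fold different. Vim was at a log2 level of 15.13 without and 15.23 with the hormones, Col1a1 at 14.93 and 15.19, Sparc at 14.88 and 14.91, and Col1a2 at 14.79 and 15.04. Thy1 was under the floor on both arrays.

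Of the 10 PDGF and EGF family genes, 9 were measured. Pdgfc, Nrg1 and Egfr, 3 of the 9, were higher by 2-fold or more on the T+E2 array, 0 were lower by that much and 6 differed by less. Over all measured genes, 4.96% were at least 2-fold higher and 4.01% at least 2-fold lower. Differences lay above 0 for 8 of the 9, all but Pdgfd, whereas 55.8% of all measured genes lay above 0. Their median log2 difference (T+E2 minus untreated) was 0.58, beside 0.07 over all measured genes, and the range was -0.12 to 1.41. In 6 genes more than 1 probe set was measured, and within each of the 6 all measured probe sets lay on the same side of 0.

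**Figure D1:**
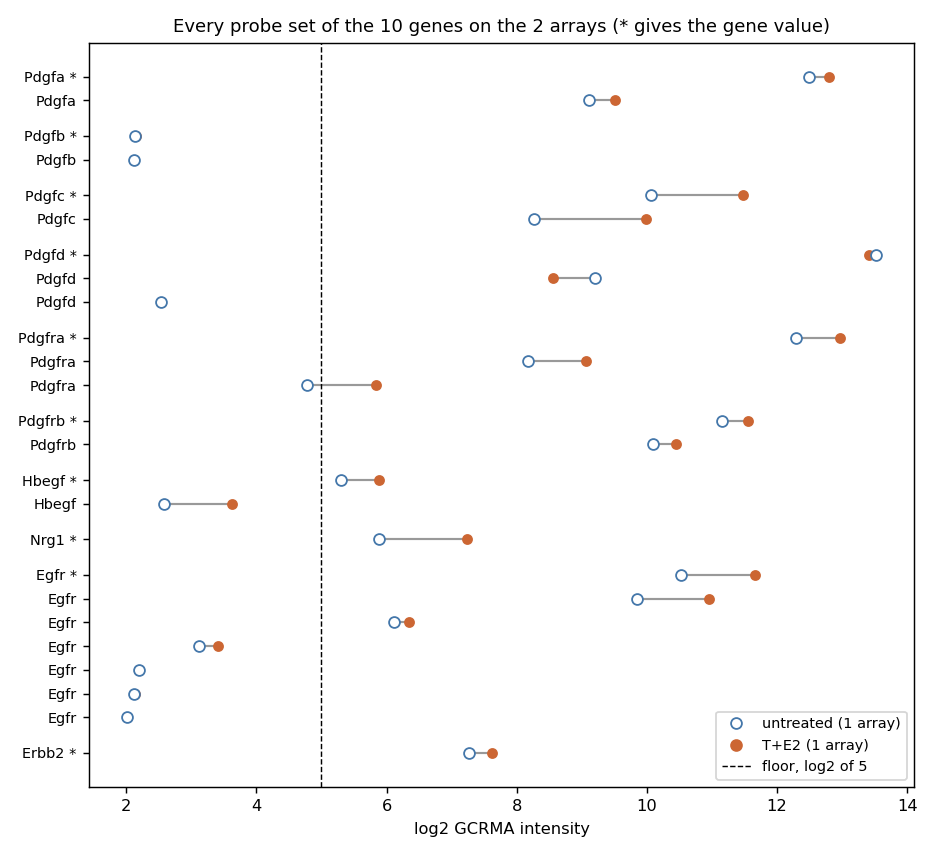
Log2 GCRMA intensity of all 25 probe sets of the 10 genes (horizontal axis) without hormones (open circles) and with T+E2 (filled circles), joined by a line, with the floor dashed; where only an open circle shows, both values coincide. The Pdgfc, Nrg1 and Egfr values that represent the genes show the widest gaps, Pdgfd lies slightly to the left with T+E2, and both Pdgfb probe sets sit near 2.

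The sequences just upstream of 3 of the genes are shown because Pdgfc and Egfr were at least 2-fold higher, while Erbb2, whose product pairs with EGFR, was not. Each is the 250 bases before the annotated start of the gene in RefSeq for GRCm38.p6, on the plus strand. The windows are chr3:81036166-81036415 for Pdgfc, chr11:16751953-16752202 for Egfr and chr11:98412234-98412483 for Erbb2. Capitals mark a CArG box, the motif bound by serum response factor.
Pdgfc: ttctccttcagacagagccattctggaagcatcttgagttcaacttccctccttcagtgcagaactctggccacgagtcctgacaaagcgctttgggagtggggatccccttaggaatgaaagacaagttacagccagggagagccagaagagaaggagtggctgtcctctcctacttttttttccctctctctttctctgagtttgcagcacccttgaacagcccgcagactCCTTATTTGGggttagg
Egfr: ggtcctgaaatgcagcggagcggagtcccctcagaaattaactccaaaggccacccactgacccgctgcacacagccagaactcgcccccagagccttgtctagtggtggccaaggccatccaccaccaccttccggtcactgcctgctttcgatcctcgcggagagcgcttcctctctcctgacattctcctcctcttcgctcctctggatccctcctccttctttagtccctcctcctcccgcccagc
Erbb2: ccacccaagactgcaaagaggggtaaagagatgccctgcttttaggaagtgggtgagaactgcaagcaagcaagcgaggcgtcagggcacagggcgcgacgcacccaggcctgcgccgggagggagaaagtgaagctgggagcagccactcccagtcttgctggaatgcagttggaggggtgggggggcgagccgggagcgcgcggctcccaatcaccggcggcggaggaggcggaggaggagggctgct

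Such windows were found for 6 of the 10 genes, by symbol, in 7 windows. The windows of 1 chromosome had been left out of this search and of the shares below. A gene without a window here may therefore still have one. The Pdgfc window held 1 CArG box, CCTTATTTGG, at positions -17 to -8 (the base before the start being -1), and no other of these windows held any. In all, 1.47% of 32851 promoter windows of the same length held a CArG box, which was added to the search after the Pdgfc sequence had been seen. The other motifs, searched on both strands, were the palindromic androgen response element and the hexamer AGAACA that lies within it, the palindromic estrogen response element, the AP-1 site TGANTCA, the cyclic AMP response element TGACGTCA and the GC box GGGCGG. Shares over all windows were 0.00913%, 16.1%, 0.0639%, 6.75%, 1.55% and 32.7%, in that order. Among the 7 windows only the GC box was matched, once in Egfr (positions -9 to -4), once in one Pdgfa window and at 2 places in the other. These are letter matches within 250 bases and say nothing on binding.

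Among the PDGF ligands, Pdgfc stood out. Pdgfc had an intensity of 1070 without and 2838 with the hormones, a 2.65-fold difference (log2 1.41). Its second probe set read 308 and 1009 (log2 1.71; pairs of values give untreated cells first), so both lay in the same direction. Of all 10267 measured genes, 1.47% differed by as much or more in the upward direction.

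Pdgfa, the other ligand of receptor α, was at 5750 without and 7099 with the hormones (1.23-fold, log2 0.30). Its second probe set gave 553 and 727 (log2 0.40). Both were higher with T+E2, but 34.3% of measured genes were at or above the Pdgfa difference.

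Pdgfd was the only measured gene of the 10 that was not higher with T+E2. It was at 11786 without and 10861 with the hormones (log2 -0.12). A second probe set was lower by more, at 592 and 377 (log2 -0.65), and the third was near 5.76 on both arrays, under the floor. Pdgfd therefore lay on the other side of 0 from Pdgfc, its closest relative in structure. Pdgfb, which platelets and endothelial cells are known to make, was under the floor in both of its probe sets (4.41 and 4.33 in untreated cells, 4.43 and 4.35 with T+E2), so no difference is given.

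Both PDGF receptor genes were higher with T+E2 by less than 2-fold. Pdgfra, which marks mesenchymal cells in many organs, was at 5016 without and 7980 with the hormones (1.59-fold, log2 0.67). Its other probe sets gave 288 and 535 (log2 0.89) and 27.3 and 57.4, the last from under the floor. Pdgfrb, the receptor of pericytes and many fibroblasts, was at 2266 and 2992 (1.32-fold, log2 0.40), with a second probe set at 1098 and 1391 (log2 0.34). All 5 probe sets of the 2 receptor genes were higher on the T+E2 array. In a bulk array such a difference cannot be divided between more cells with a transcript and more transcript per cell.

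Egfr, represented by its brightest probe set, was the only receptor gene of the 4 to pass 2-fold. It was at 1472 without and 3243 with the hormones, 2.20-fold higher (log2 1.14), and a second probe set gave 922 and 1978 (log2 1.10). The third measured probe set, 1460420_a_at, showed far less, at 69.2 and 81.5 (log2 0.24), and the other 4 of the 7 were under the floor. The mean over the 3 measured probe sets was 0.83, under 2-fold, and the mean over all 7 was 0.40. Pdgfra stood at 0.88 under both of these means, above Egfr. Erbb2 has 1 probe set, at 154 without and 197 with the hormones (1.27-fold, log2 0.35).

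Nrg1 showed a larger difference than Hbegf, the other EGF family ligand of the 10. Its only probe set was at 58.9 without and 151 with the hormones, 2.56-fold higher (log2 1.36), and 1.68% of measured genes were at or above that difference. Hbegf was close to the floor on both arrays, at 39.5 and 58.9 (1.49-fold, log2 0.58). Its second probe set was at 6.01 and 12.3, under the floor. The Hbegf value has no second measured probe set behind it, and the same holds for Nrg1 and Erbb2.

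The rest of the EGF family was sparse in these cells. Of 10 other ligand and receptor genes of the family on the array, 3 were measured, none was counted as 2-fold different at this floor, and 7 were under the floor on both arrays. Ereg, an EGFR ligand, was at 526 without and 752 with the hormones (log2 0.52). Tgfa, which encodes the EGFR ligand TGF-α, was at 12.2 in untreated cells, under the floor, and at 49.3 with T+E2, at least 1.54-fold higher against the floor. That is a lower bound, and Tgfa was counted as at least 2-fold higher with a floor of 4 or with none. Btc, the third, was at 48.2 and 66.2. Erbb3 (4.53 and 4.56) and Erbb4 (4.87 and 5.19), which encode the receptors that bind Nrg1, were both under the floor, as was Egf. Areg was not analysed here.

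Ligands and receptors did not separate as groups. A 2-fold higher value with T+E2 was found for 2 of 5 measured ligand genes and for 1 of 4 receptor genes. The median log2 difference was 0.58 for the ligands and 0.54 for the receptors. The ligands were more spread out, from -0.12 to 1.41, than the receptors, from 0.35 to 1.14. Their order also changed with the processing: the ligand median minus the receptor median was 0.04 as reported and -0.07 with a trend with level removed. It was 0.47 with the mean of all probe sets, where Hbegf gave no value and the ligands compared were fewer.

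Set side by side with a receptor or co-receptor, some ligands had the larger difference and others the smaller one. The Pdgfc difference exceeded that of Pdgfra by 0.74 (log2), whereas the Pdgfa difference was smaller than that of Pdgfra (-0.37). Pdgfd was lower and Pdgfrb higher, a gap of -0.52. The Hbegf difference was smaller than that of Egfr (-0.56). Nrg1 exceeded Erbb2, the co-receptor, by 1.01. Each value compares differences between the 2 arrays, not the levels of ligand and receptor, and Pdgfb gave no value for its pair.

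**Figure D2:**
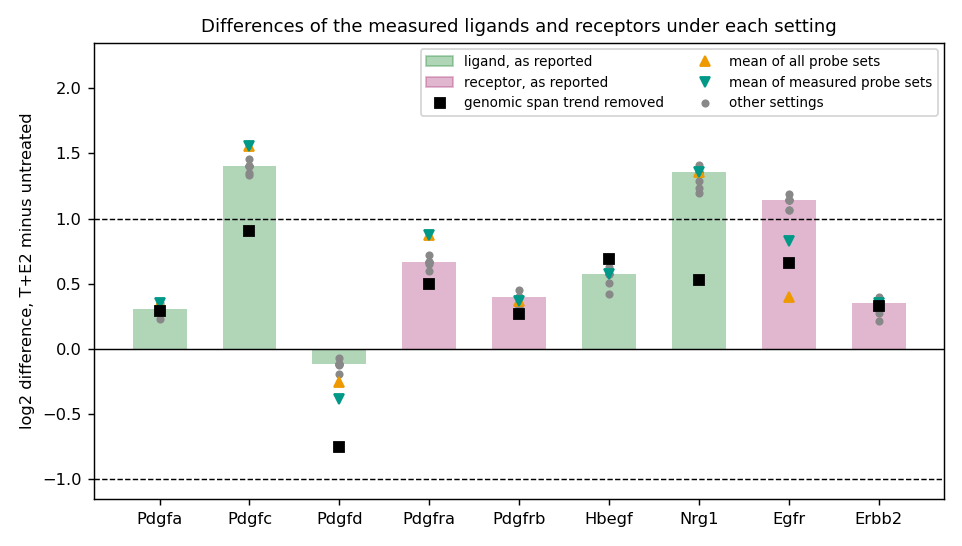
Log2 difference (T+E2 minus untreated, vertical axis) of the 9 measured genes, with bars for the values as reported (ligands green, receptors purple), symbols for other ways of processing and dashed lines at 2-fold. The bars of Pdgfc, Nrg1 and Egfr pass 2-fold, their squares (genomic span trend removed) lie under it at 0.91, 0.53 and 0.66, and Pdgfd is below 0 in all 10 alternatives.

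Genomic span, the length of a gene from first to last base, moved with the differences and bears on these genes. Over all measured genes the median log2 difference was -0.17 for spans under 10 kb (2412 genes) and 0.61 for spans over 200 kb (482 genes). Pdgfc spans 178 kb, Egfr 162 kb and Nrg1 1084 kb, so the 3 genes that passed 2-fold are all long. With the span trend removed, Pdgfc stood at 0.91, Egfr at 0.66 and Nrg1 at 0.53, and 0 of the 9 genes passed 2-fold either way, beside 2.96% of all genes higher and 4.22% lower. All 8 genes above 0 stayed above 0, beside 51.2% of all genes.

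Pdgfd went against the trend. It spans 366 kb, and of the 482 genes over 200 kb 12.0% had a difference as low as that of Pdgfd or lower. With the span trend removed Pdgfd stood at -0.75. Hbegf, the shortest of the 9 at 10.9 kb, moved the other way, from 0.58 to 0.69. The gap between Hbegf and Egfr then closed to 0.03, the gap between Nrg1 and Erbb2 narrowed to 0.20, that between Pdgfc and Pdgfra to 0.41, and that between Pdgfd and Pdgfrb widened to -1.02. Among 880 genes of 100 to 200 kb, 3.75% were at or above the Pdgfc difference and 8.86% at or above that of Egfr. Among the genes over 200 kb, 7.05% were at or above that of Nrg1. The part of span in the differences was not tested.

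**Figure D3:**
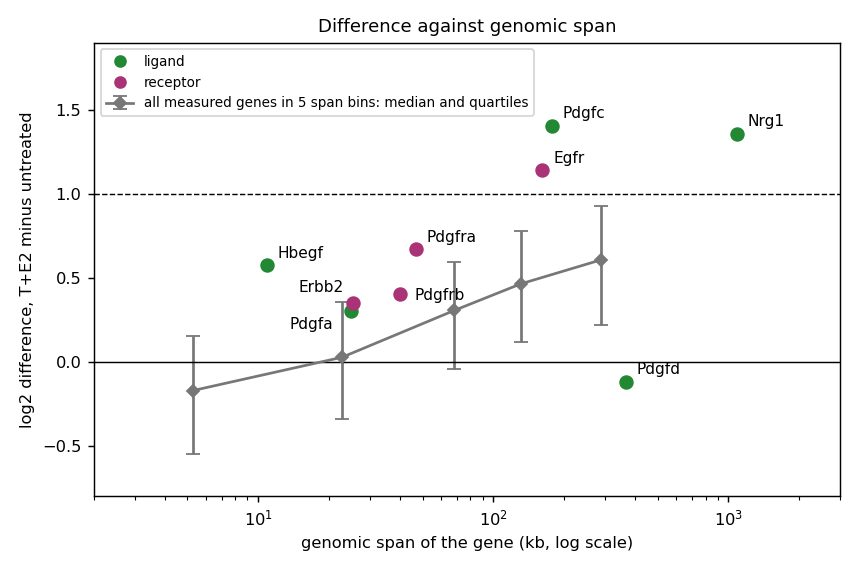
Log2 difference (vertical axis) against genomic span (horizontal axis, log scale) for the 9 measured genes, with grey diamonds and bars for the median and quartiles of all measured genes in 5 span bins. The bin medians climb from -0.17 to 0.61, Pdgfc, Egfr and Nrg1 lie above the upper quartile of their bins, and Pdgfd lies below the lower quartile of its bin.

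Proteases that release or activate these ligands were next. Of 16 such genes and their regulators, 12 were measured, 3 of them at least 2-fold higher with T+E2 and 0 lower. Over all measured genes these shares were 4.96% and 4.01%. The list median was 0.37, beside 0.07 over all measured genes. The 3 higher genes were Pcsk6, a proprotein convertase (512 without and 1271 with the hormones, 2.48-fold), Adam12 and Adam19. Adam12, a metalloprotease known to shed HB-EGF, was at 240 and 590 (2.46-fold). Adam19, known to process neuregulin, was at 335 and 771 (2.31-fold). All 3 stood under 2-fold with the span trend removed (0.80, 0.68 and 0.84), and Pcsk6 rested on 1 measured probe set. Adam17, the main sheddase of EGFR ligands, was at 1851 and 2748 (log2 0.57). Plat, which encodes tissue plasminogen activator, an activator of PDGF-C, was the only measured gene of the list below 0 (log2 -0.60). Adam17 and Plat were named after their values had been seen.

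Downstream of the receptors, 25 of 25 adaptors and proximal effectors were measured, 2 at least 2-fold higher and 0 lower, with a median of 0.57. Over all measured genes, 4.96% were at least 2-fold higher and 4.01% at least 2-fold lower. Differences lay above 0 for 20 of the 25, beside 55.8% of all measured genes. The docking protein gene Gab2 was at 60.3 without and 139 with the hormones (2.31-fold), and the adaptor gene Crkl at 145 and 298 (2.06-fold). Both rested on 1 measured probe set each. With the span trend removed the list median was 0.28, and neither passed 2-fold (Gab2 0.67, Crkl 0.95). In the Ras and MAPK cascade, 10 of the 16 genes listed were analysed here and all 10 were measured, with 1 at least 2-fold higher, 0 lower and a median of 0.31. That gene was the scaffold gene Ksr1 (37.9 and 130, 3.42-fold), measured in 1 probe set with its other 2 under the floor, and at 1.33 with the span trend removed. Its untreated value was close to the floor, and the name of its probe set ends in _s_at. With such probe sets set aside, 0 genes of the cascade were at least 2-fold higher. Srf, the gene of serum response factor, came just under 2-fold higher (log2 0.96, and 1.06 with the span trend removed). The adaptor gene Nck1 came as close to 2-fold lower (log2 -0.96, and -1.16 with the span trend removed). All 3 of its measured probe sets were lower. Srf and Nck1 were named after their values had been seen.

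Genes of proteins that restrain these receptors included several that were 2-fold higher, though how many depended on the choice of probe sets and on the span trend. Of 24 measured negative regulators, 9 (37.5%) were higher by 2-fold or more after hormone treatment and 0 were lower, beside 4.96% and 4.01% of all measured genes. Their median was 0.51. This list, like the others, was chosen with earlier results of these data known. Its share beside that of all genes is therefore a description and no test of the list. Spry4, an inhibitor of receptor tyrosine kinase signalling, was at 28.9 in untreated cells, under the floor, and 131 with T+E2, at least 4.10-fold higher. Nf1, which encodes the Ras GTPase-activating protein neurofibromin, was 2.87-fold higher (57.5 and 165).

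The other 7 of the 9 had lower folds. Errfi1 encodes MIG6, a direct inhibitor of EGFR and ERBB2. It was at 893 without and 2399 with the hormones (2.69-fold). Rnf41 encodes NRDP1, a ubiquitin ligase for ERBB3, and its probe set with the highest level was 2.67-fold higher (253 and 675). Lrig1, which encodes a membrane inhibitor of ERBB receptors, was 2.26-fold higher, and the ubiquitin ligase gene Cbl 2.26-fold. The others were Ptprj, a receptor phosphatase gene (2.21-fold), Spred2 (2.08-fold) and Cblb (2.03-fold).

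The 9 calls were not equally supported. In 5 of them all measured probe sets lay on the same side, 2 (Errfi1 and Nf1) rested on 1 measured probe set and in 2 the probe sets split. Among the 5, the second probe sets of Spry4, Cbl and Spred2 passed 2-fold as well. The other measured probe sets of Lrig1 (log2 0.05 and 0.78) and of Ptprj (log2 0.60) did not. A second Cblb probe set read 7.90 without and 5.15 with the hormones (log2), and of 4 measured Rnf41 probe sets 2 were above 0 and 2 below. With the mean of the measured probe sets 5 of the list were at least 2-fold higher, beside 5.67% of all genes. With the mean of all probe sets 0 were, beside 3.35% of all genes. With the span trend removed 4 were, beside 2.96%. Those 4 were Spry4 (2.10), Errfi1 (1.49), Rnf41 (1.36) and Dusp6 (1.12), the last a phosphatase gene that stood at 0.94 before. All of these lists lay above the median of all measured genes, so a high median is not particular to any of them.

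**Figure D4:**
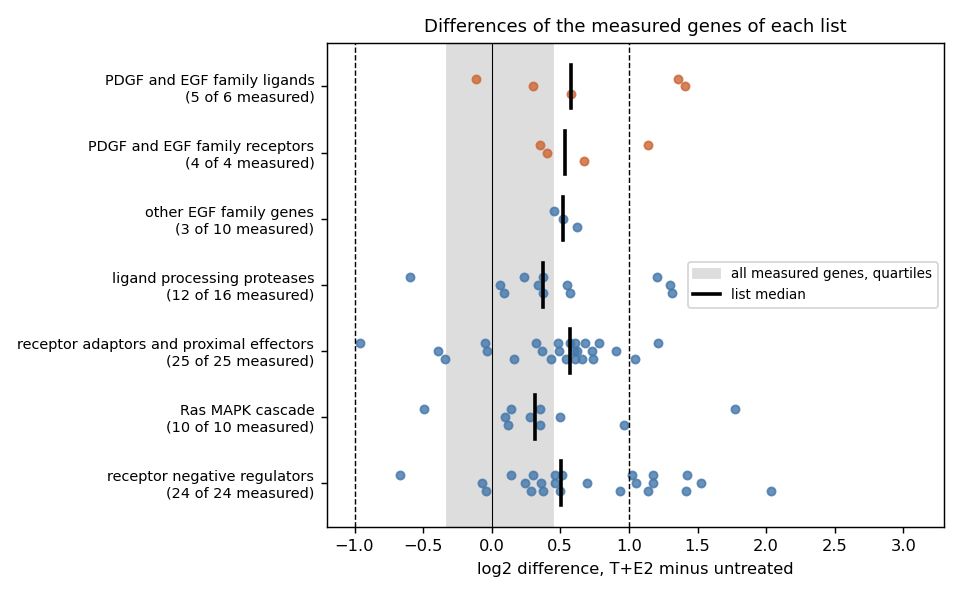
Log2 difference (horizontal axis) of each measured gene of the 10 ligands and receptors (orange) and of 5 further lists (blue), with list medians as black bars, the quartiles of all measured genes in grey and dashed lines at 2-fold. The negative regulators have 9 points to the right of the upper 2-fold line, and no list has a point to the left of the lower one.

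Few markers of other cell types reached the floor. Of 12 epithelial markers, 2 were measured: Cdh1, at a log2 level of 5.37 without and 7.57 with the hormones, and Trp63, at 7.99 and 8.46. Epcam, Shh and the keratin genes of the list were at background on both arrays. The summed intensity of the epithelial list was 342 without and 587 with the hormones. Egfr and Erbb2, which epithelia also express, moved in the same direction, and the part of this in their difference was not tested. Of 8 endothelial markers 1 was measured (Tek, 9.82 and 10.02), with summed intensities of 934 and 1071. Of 8 leukocyte and macrophage markers 2 were measured, Lyz2 (10.06 and 8.53) and Cd14 (6.13 and 6.30), and the sum was 1166 and 479. Of 8 pericyte and smooth muscle markers 3 were measured, Acta2 (14.62 and 14.75), Cspg4 (7.99 and 8.95) and Mcam (6.33 and 6.91), and the sum was 25480 and 28106. The neural and Schwann cell list had 6 markers on the array, 2 of them measured: Ncam1 (10.25 and 11.18) and S100b (7.08 and 6.92), with sums of 1369 and 2474.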

How the data were processed

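UGM cells, untreated or given T+E2, were profiled on 1 Affymetrix mouse expression array each. The deposited values are intensity values on a linear scale. GCRMA (background correction by probe sequence, quantile normalization, probe set summary) is named in the submitters' processing notes, with its version not given in the sources used here. Quantile normalization forces both arrays to near-equal distributions, so a global shift would not be seen, and GCRMA sets probe sets without signal to a low value, hence the floor.

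Intensities were put on the log2 scale and the floor of 5 was applied to both arrays before differences were formed. Where 1 array lay under it, the fold is written as "at least". Probe sets were named from the platform annotation: 34945 named 1 gene, 932 several, 9160 none, and 64 were controls. Symbols were updated, and spans taken, through the RefSeq table of GRCm38.p6, which held 18145 of the 18193 genes. The span and level trends were removed by lowess (fraction 0.3, 3 iterations) with statsmodels 0.14.6 in Python 3.11.15. The 2-fold count and the trend removal were checked on simulated arrays. Differences were planted only in genes well above the floor, with noise set from the spiked-in controls. Calls near the floor and the spread between cultures were not covered by that check.

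The genes and lists were chosen with earlier results of these data known. Named were the 10 genes, list genes past 2-fold (or the 2 largest) and up to 4 measured markers per cell type. With 2 arrays no likeness of pattern between genes was computed. Alternatives were other floors, probe set rules, centring and both trends.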

Additional observations from a re-analysis of the deposited data

How the results depend on the processing

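There were no replicates to leave out, and precision is limited by there being 2 arrays. No paired analysis was possible because each group has 1 array. A value was taken as moved when it changed by more than 0.22, the median SD between the probe sets of a gene. A count was taken as moved when it changed by more than 1.5 times. Within that, 2 of the 10 genes were higher with either mean of probe sets, 3 adaptors with a floor of 4, no floor or the mean of measured probe sets, and 7 negative regulators with centring on the median difference or the level trend removed and 8 without the _s_at and _x_at probe sets. Pdgfa, Pdgfc, Pdgfra, Pdgfrb, Egfr, Erbb2 and Nrg1 were above 0, and Pdgfd below 0, in all 10 alternatives. Hbegf was above 0 in the 8 that gave a value. With the span trend removed, 0 of the 10 genes passed 2-fold. The gaps were then 0.41 (Pdgfc to Pdgfra), -1.02 (Pdgfd to Pdgfrb), 0.029 (Hbegf to Egfr) and 0.20 (Nrg1 to Erbb2), the adaptor median was 0.28, and counts of higher genes were 0 proteases, 0 adaptors, 2 in the Ras and MAPK cascade, 4 negative regulators and 303 of all genes, with 1 adaptor lower. With the mean of all probe sets, which includes those near background on both arrays, Hbegf gave no value. The ligand median was 0.85 without it, the ligand median minus the receptor median 0.47, the adaptor median 0.22 and the negative regulator median 0.23. Counts of higher genes were then 1 adaptor, 0 in the Ras and MAPK cascade, 0 negative regulators and 315 of all genes, with 1 protease lower. With the mean of measured probe sets, chosen after seeing the data, the gaps were -0.76 (Pdgfd to Pdgfrb) and -0.25 (Hbegf to Egfr), and 5 negative regulators were higher. For the other EGF family genes the median was 0.28 with a floor of 6 and 0.035 with no floor. With a floor of 4, 1 of them was higher, and with no floor 1 was higher and 1 lower. Centring on the median difference, or removing the trend with level, gave 1 adaptor higher and 1 lower. In the Ras and MAPK cascade, 2 genes were higher with centring on the spikes and 0 when probe sets with names ending in _s_at or _x_at were set aside. The cause of these changes was not tested.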
